A study of Mus musculus with 12 samples.

Results

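The comparison set B cells that had divided 5 times (Div5) against B cells that had not divided (Div0) in the same 2 mice, and asked at which division each change first appeared. The members are the 11332 genes, of 21671 genes with a symbol in the series, that had 10 or more counts in both Div5 libraries or in both Div0 libraries. Of these, 10763 reached 10 counts in all 4 libraries. A total of 336 tested members entered through Div5 alone and 229 through Div0 alone, so a difference in 1 direction was built into them. At the edge of the rule, 91 genes had exactly 10 counts in the lower library of their better group and 79 genes had 9.

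Splenic B cells (B220+ CD43-) from naive donor mice were loaded with a division dye, CFSE or CTV, that is diluted at each division. They were moved into uMT mice, which make no mature B cells of their own, and the hosts were given lipopolysaccharide (LPS), a bacterial cell wall product that acts through Toll-like receptor 4. On day 3 the transferred cells were sorted from the spleen by dye content at 0, 1, 3 and 5 divisions (Div0, Div1, Div3 and Div5), and each group held 1 library from host #196 and 1 from host #197 (n = 2 per group, 8 libraries). All groups, Div0 included, shared the transfer, the host and the LPS, so Div0 is not an untreated control, and no group was sorted before LPS. The labels describe the samples as female, aged 8 weeks and of strain B6.SJL-Ptprca Pepcb/BoyJ, whereas the design text names C57/BL6J donors. Neither says whether donor animals were pooled. The series holds 12 libraries in all, and the remaining 4 are from cells with 8 or more divisions, CD138- (Div8neg) or CD138+ (Div8pos), which entered the model fit but no comparison here.

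A resting B cell that meets LPS enters the cell cycle, builds up its biosynthetic machinery, and goes through a run of rapid divisions. Dividing B cells lose the transcription factors that hold the B cell state, such as Bach2 and Bcl6, while a share of them gain Blimp-1 (the product of Prdm1) and Xbp1, which set up the enlarged endoplasmic reticulum (ER) of an antibody-secreting plasma cell. Division number is therefore a common ruler for B cell differentiation, and the point of the present comparison is where along that ruler a change between Div0 and Div5 lies.

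The 8 libraries held 11541406 to 14961666 gene counts, and between 11113 and 11477 genes reached 10 counts in each. Levels are given as CPM, gene counts scaled to library size with TMM factors, host 196 before host 197, and are compared only within a gene, since CPM is not corrected for length. The cells carried B cell markers throughout: Cd79a, a signalling chain of the B cell receptor, was at 1315 and 1394 CPM in Div0 and 1169 and 1206 CPM in Div5, and Ms4a1, the CD20 gene, was at 965 and 907 CPM and then 1098 and 1077 CPM. In bulk libraries such as these, fewer cells of a type and less RNA per cell cannot be told apart.

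Relative to all genes, 6242 of the 11328 tested members differed between Div5 and Div0, in nearly equal numbers up and down. Of the members, 3137 were higher in Div5 (27.7%) and 3105 were lower (27.4%) at an adjusted p under 0.05 in edgeR with the host as a block; over all 12026 genes tested the shares were 26.4% and 26.1%. Most of the differences were small: 637 members were at least 2-fold higher (log2 of 1 or more) and 475 at least 2-fold lower, against 5.62% and 4.20% of all genes tested. The 4 members that did not pass the filter on low counts were Gcnt2, BC022687, Dennd2c and Tfr2. Below, "rose", "fell" and "called" refer to that adjusted p, and each log2 value is Div5 over Div0 unless another pair is named. Values "per cell" scale each library to its ERCC spike-in counts instead, which puts the median gene at a log2 of 1.20.

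Div5 was the commonest date among all genes called, but not among those that changed at least 2-fold. A change was dated to the first division at which the gene differed from Div0 in the direction it had at Div5. Among the genes higher in Div5, 702 (22.4%) were dated to Div1, 929 (29.6%) to Div3 and 1506 (48.0%) to Div5 only, which compares with 5.85%, 7.76% and 12.8% of all genes tested. Among those lower in Div5, 636 (20.5%) were dated to Div1, 898 (28.9%) to Div3 and 1571 (50.6%) to Div5 only, against 5.30%, 7.52% and 13.3% of all genes tested. Of the 637 genes at least 2-fold higher, 266 were dated to Div1, 207 to Div3 and 164 to Div5 only. Of the 475 at least 2-fold lower, 181, 159 and 135 were. A missed threshold at Div1 or Div3 does not show that a gene was unchanged there, and small changes miss it more easily. The comparisons behind these dates share the Div0 libraries.

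By their medians, the genes dated to Div1 moved most in the first division and moved further after it. Their median log2 was 0.46 at Div1 over Div0, 0.14 at Div3 over Div1 and 0.14 at Div5 over Div3 for the higher genes, and -0.34, -0.15 and -0.12 for the lower ones. Genes dated to Div3 climbed or sank in about equal parts, with medians of 0.14, 0.17 and 0.16 upward and -0.14, -0.17 and -0.18 downward, and 186 of the 929 and 153 of the 898 passed the test for the single step from Div1 to Div3, a step that 3.20% of all genes tested passed upward and 3.08% downward. Genes dated to Div5 only were nearly level up to Div3 (0.02 and 0.06 upward, -0.03 and -0.05 downward) and then moved by medians of 0.28 and -0.25, and the step from Div3 to Div5 itself passed for 998 of the 1506 (66.3%) and 883 of the 1571 (56.2%), against 17.0% and 16.0% of all genes tested. These step tests share libraries with the dates, so a high share is built in. The medians are shaped by the dates too, since calls at Div1, Div3 and Div5 define the classes. Of the 702 genes dated to Div1 and higher, 304 were called higher again from Div3 to Div5 and 72 lower. Of the 636 lower ones, 214 were called lower again and 26 higher.

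**Figure D1:**
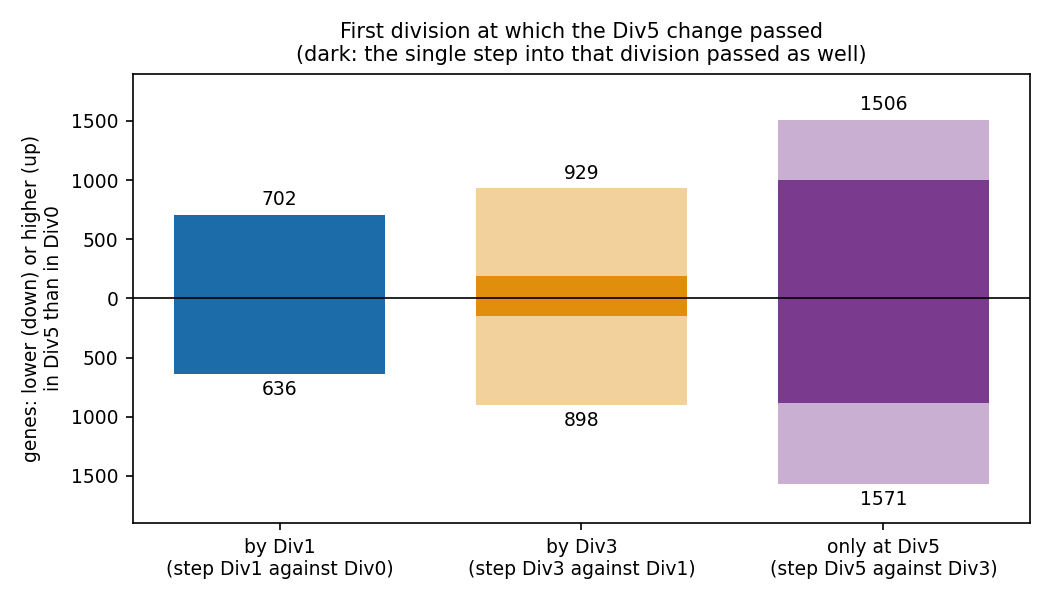
Number of member genes higher (upward bars) or lower (downward bars) in Div5 than in Div0, by the first division at which they differed from Div0 in the same direction; the dark part of a bar counts genes whose single step into that division also passed (all of them by definition for Div1). The bars for Div5 only are the tallest, with 1506 genes upward and 1571 downward.

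The dates rest on 2 libraries a group, and those at Div1 and Div3 moved most when a library was left out. Genes dated to Div1 fell from 702 to 419 (higher) and from 636 to 289 (lower) when the host 196 library of Div0 was left out, and to 409 and 269 when the host 197 library of Div1 was; the lower ones also came to 317 without Div0 of host 197, to 372 without Div1 of host 196 and to 398 without the host block. Genes dated to Div3 came to 485 higher and 453 lower without the Div3 library of host 197. A date taken from the estimates alone, as the first division by which 50% of the Div5 change was reached in both hosts, gave 527, 813 and 1797 genes upward and 460, 769 and 1876 downward for Div1, Div3 and Div5. Among genes with changes of at least 2-fold it gave 128, 255 and 254 of 637 upward and 54, 190 and 231 of 475 downward.

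Among genes that reached 10 CPM in the higher group, those dated to Div1 and higher were led by Itgax, the integrin chain CD11c, which reached 13.1-fold. Its level was 3.65 and 4.79 CPM in Div0, 7.96 and 10.2 in Div1, 22.5 and 25.4 in Div3 and 47.1 and 64.0 in Div5 (log2 3.71 ± 0.11 SE, adjusted p = 3.39e-15). No 2 neighbouring groups overlapped, and each single step passed. Cxcr3, a chemokine receptor for interferon-induced ligands, went from 10.4 and 16.1 CPM to 18.5 and 24.0, 67.2 and 74.7 and then 139 and 144 (log2 3.44 ± 0.11, adjusted p = 3.39e-15). The largest of its steps was from Div1 to Div3, with a log2 of 1.73. Cpd, a carboxypeptidase of the trans-Golgi network, rose 8.51-fold, Phactr2, a regulator of actin and protein phosphatase 1, rose 8.08-fold, and Gbp2b, an interferon-induced GTPase with close paralogs that could share reads, rose 6.27-fold. Fas, the death receptor, levelled off after Div3: it was at 13.5 and 13.7 CPM in Div0, 32.1 and 33.3 in Div1, 51.4 and 43.5 in Div3 and 49.1 and 45.8 in Div5, where Div3 and Div5 overlapped.

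Mitosis genes formed the most uniform group dated to Div1. Of 46 genes of spindle, centromere and mitotic kinases, 45 rose and all 45 were dated to Div1, with a median log2 of 1.38 against 0.00 for all members tested. The counts of this and the later lists are to be read against the 27.7% of all tested members that were higher and the 27.4% that were lower. Their median was 0.76 in the first division, 0.15 from Div1 to Div3 and 0.45 from Div3 to Div5, and 45 passed again in that last step. Cenpe, the kinesin that aligns chromosomes, was at 51.3 and 53.0 CPM in Div0, 102 and 111 in Div1, 139.6 and 146 in Div3 and 190.4 and 191 in Div5 (log2 1.87 ± 0.06, adjusted p = 7.22e-15). The hosts lay close together in every group, and the groups did not overlap. Ccnb1, which encodes cyclin B1, the partner of Cdk1 at entry into mitosis, was at 31.8 and 36.8 CPM, then 54.1 and 59.7, 70.5 and 78.5, and 111 and 123 (3.43-fold). Hmmr, a spindle assembly factor, rose 3.37-fold. Pttg1, which encodes securin, the inhibitor of separase, was the 1 member that went the other way: 24.1 and 21.9 CPM in Div0, 19.9 and 20.6 in Div1, 19.5 and 20.7 in Div3 and 15.1 and 16.3 in Div5 (log2 -0.55 ± 0.10, adjusted p = 0.000119); per cell it was higher, at 0.65. It is named here because it was the exception, after its values were seen.

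Many mitosis genes carry a CCAAT box and a CHR element (TTTGAA) near the start of transcription, the elements through which the DREAM and MuvB complexes and NF-Y are known to act. The windows below are the 110 bases before the RefSeq start (build GRCm38.p6) of 3 mitosis genes that rose from Div1 on, printed 5′ to 3′ on the gene's strand to show where these letters stand; capitals mark CCAAT, its reverse ATTGG, and TTTGAA. Cdk1 lies at chr10:69352913-69353022, Ccnb1 at chr13:100786487-100786596 and Ccnb2 at chr9:70421555-70421664, all on the minus strand. TTTGAA stands in the printed window of Cdk1 alone.
Cdk1: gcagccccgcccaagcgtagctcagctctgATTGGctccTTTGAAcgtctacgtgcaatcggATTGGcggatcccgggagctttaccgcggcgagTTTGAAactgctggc
Ccnb1: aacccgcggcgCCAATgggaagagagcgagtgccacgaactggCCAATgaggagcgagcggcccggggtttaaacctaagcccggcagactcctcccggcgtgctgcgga
Ccnb2: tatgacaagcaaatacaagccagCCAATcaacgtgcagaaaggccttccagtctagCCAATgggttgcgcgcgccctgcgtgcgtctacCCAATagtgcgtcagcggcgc
In windows of 250 bases before the start, searched on both strands, CCAAT stood in 28 of the 40 mitosis genes with a window (70.0%), against 37.4% of the 9079 tested members with a window and 34.5% of all 27025 windows. TTTGAA stood in 11 of the 40 (27.5%), against 10.5% of members and 16.3% of all windows, and in 16.1% of the genes dated to Div1 and higher. CCAAT alone did not follow the direction of change, since it also stood in 9 of 12 windows of MHC class II genes (75.0%), of which none rose relative to all genes. These are matches of letters and carry no test.

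DNA replication and nucleotide synthesis moved in the same direction as mitosis but mostly later. Of 45 replication genes 35 rose and 4 fell, with 9 of the higher ones dated to Div1, 7 to Div3 and 19 to Div5 only (median log2 0.54). Mcm10, which loads the replicative polymerase, was at 32.5 and 36.2 CPM in Div0, 47.2 and 51.9 in Div1, 46.8 and 58.7 in Div3 and 80.7 and 85.4 in Div5 (2.42-fold, adjusted p = 5.08e-11). Its 2 rises lay at Div1 and at Div5, and Div1 and Div3 overlapped. Rrm2, a subunit of ribonucleotide reductase, had the same shape, with 95.5 and 111 CPM, 135 and 156, 129.6 and 153, and then 206 and 226. Of 32 nucleotide synthesis genes 25 rose and 2 fell, 14 of the higher ones dated to Div5 only. Of 28 genes of G1 control 18 rose and 4 fell; E2f8, a late repressor of the E2F family, rose 2.22-fold from Div1 on, and Cdkn2c, an inhibitor of Cdk4 and Cdk6, rose 2.10-fold with no call after Div1 (log2 0.11 at Div5 over Div3, adjusted p = 0.356). Cdkn1b, which encodes the inhibitor p27, was lower at log2 -0.46 from Div3 on relative to all genes, and higher per cell at 0.74.

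Enzymes of chromatin split by date. Of 37 genes of DNA methylation and chromatin 19 rose (51.4%) and 8 fell (21.6%), the latter share below that of all members, and 9 of the higher ones were dated to Div1. Ezh2, the methyltransferase of Polycomb, was at 88.1 and 93.0 CPM in Div0, 125 and 129 in Div1, 125 and 139 in Div3 and 173 and 182 in Div5 (log2 0.97 ± 0.06, adjusted p = 2.19e-11). Dnmt1, the maintenance DNA methyltransferase, was dated to Div5 only: 354 and 362 CPM, 369 and 413, 379 and 409, and then 465 and 464 (log2 0.38 ± 0.06, adjusted p = 1.53e-05). Tet1, a DNA demethylase of the TET family, rose 3.2-fold and Hells, a remodeller that aids DNA methylation, rose 2.00-fold, both from Div1 on.

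Among the genes dated to Div1 and lower, Pde2a, a cyclic nucleotide phosphodiesterase, was at 29.5 and 28.2 CPM in Div0 and at 3.98 and 3.83 CPM after a single division, a log2 of -2.90, and then at 1.000 and 1.72 in Div3 and 1.27 and 2.97 in Div5. The step from Div3 to Div5 was not called (adjusted p = 0.260), and those groups overlapped. Mapk12, the p38 kinase gamma, went from 16.5 and 15.1 CPM to 3.56 and 4.50, 1.54 and 1.59, and 0.968 and 0.481 (log2 -4.42 ± 0.26). It reached 10 counts in both libraries of Div0 but not of Div5, so a fall was built into its membership and no p is given. Abca1, the cholesterol exporter, fell more evenly, with 46.6 and 40.7 CPM, 29.1 and 23.8, 12.3 and 8.88, and 3.87 and 2.64, and every step passed. Cacna1i, a T-type calcium channel, was at 104 and 86.6 CPM, 35.3 and 23.8, 11.5 and 9.61, and 10.1 and 9.46, with no call from Div3 to Div5. With Zfp629, a zinc finger protein that was 10.4-fold lower, these 5 genes were also the 5 with the largest falls per cell among genes of at least 10 CPM in Div0.

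Among the 19 pathway lists, quiescence and recirculation had the largest share of lower genes. Of 34 such genes 28 fell (82.4%) and 2 rose, 13 of the lower ones dated to Div1, 10 to Div3 and 5 to Div5 only; the median log2 was -0.58 relative to all genes and 0.62 per cell, where 22 were higher and 3 lower. Itgb7, an integrin chain used in homing to the gut, was at 187 and 171 CPM in Div0, 121 and 104 in Div1, 63.4 and 55.7 in Div3 and 41.9 and 41.4 in Div5 (4.30-fold lower). Tsc22d3, the glucocorticoid-induced leucine zipper, fell 3.80-fold. Klf2, a quiescence factor that controls S1pr1, dipped and came back: 160.4 and 195 CPM in Div0, 102 and 123 in Div1, 95.7 and 121 in Div3 and 132 and 182 in Div5. Its log2 was -0.66 in the first division and 0.53 from Div3 to Div5, each called. Its Div5 against Div0 difference of -0.18 (adjusted p = 0.0354) was lost without the host block, under DESeq2 and without any of 3 single libraries, and was 1.01 per cell.

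**Figure D2:**
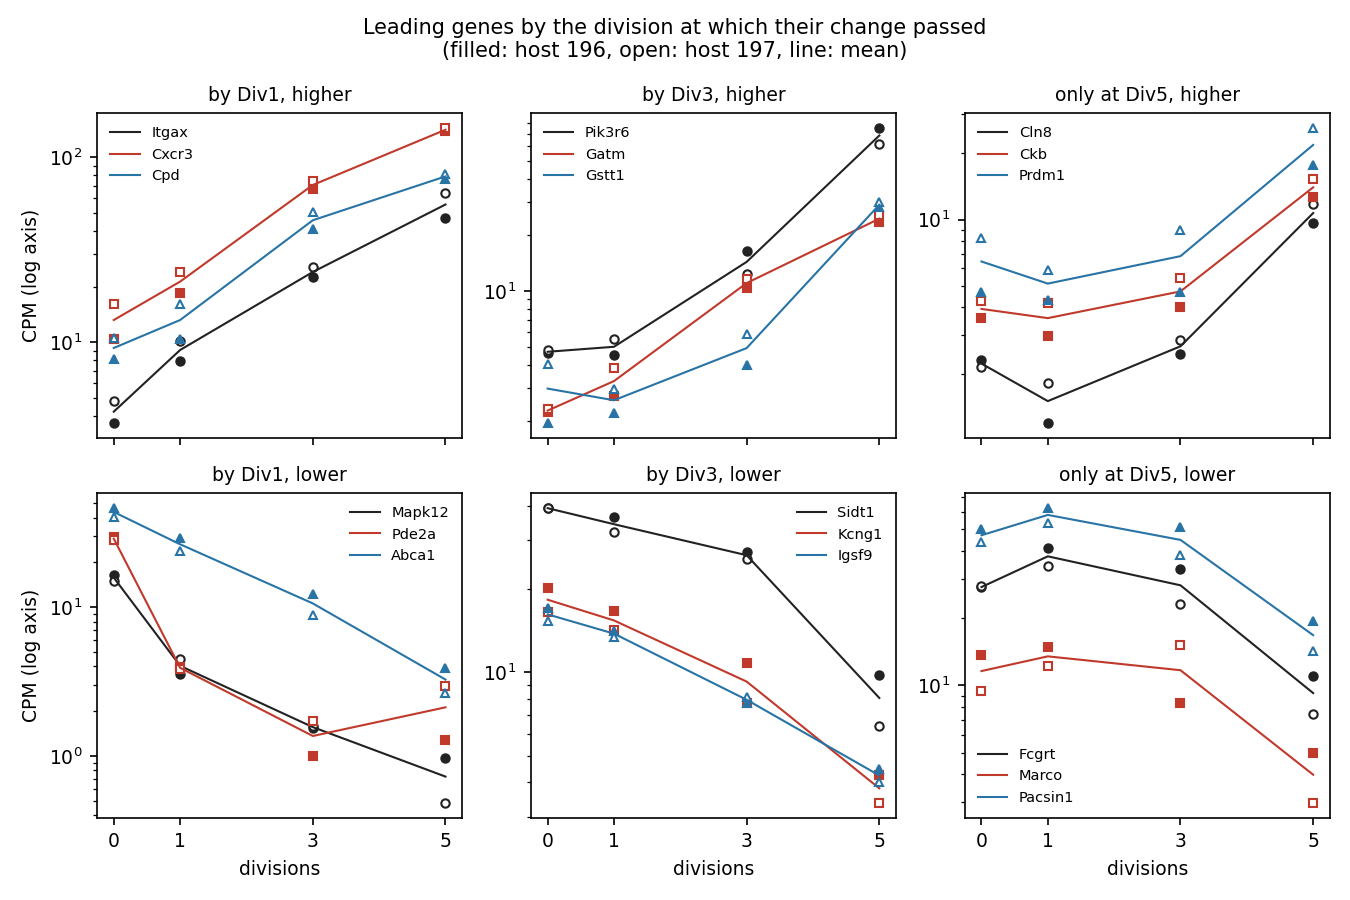
Level in CPM (log axis) against the number of divisions for 3 of the genes with the largest changes in each of the 6 classes; filled marks are host 196, open marks host 197, lines join the means. Genes dated to Div1 leave the Div0 level at once, such as Pde2a at 3.98 and 3.83 CPM in Div1. Of the genes dated to Div5 only, some stay near level up to Div3, such as Prdm1 at 4.69 and 8.95 CPM in Div3. Others of that date, Fcgrt and Pacsin1, rose at Div1 (log2 0.46 and 0.30) before they fell.

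Repressors of plasma cell fate were called lower from Div1 on relative to all genes and had their largest step from Div3 to Div5. Bcl6, the germinal centre repressor, was at 92.9 and 86.6 CPM in Div0, 68.3 and 61.1 in Div1, 55.5 and 54.5 in Div3 and 31.7 and 28.3 in Div5 (log2 -1.58 ± 0.07, adjusted p = 1.47e-13). Bach2, a repressor of Prdm1, was at 149.8 and 140.5 CPM, 126 and 119, 95.2 and 99.9, and 59.7 and 59.9 (2.43-fold lower). At Div1 their log2 was -0.47 and -0.25, and from Div3 to Div5 it was -0.88 and -0.71. Per cell, neither was called (log2 -0.37 with adjusted p = 0.0855, and -0.07 with adjusted p = 0.748). Pax5, which maintains B cell identity, was at 381 and 381 CPM in Div0, 384 and 383 in Div1, 395 and 377 in Div3 and 363 and 324 in Div5, a log2 of -0.15 ± 0.05 (adjusted p = 0.0142) that was lost under DESeq2 and without 1 library of host 197 at Div0 or Div5, and was 1.06 per cell. Of 38 genes of B cell identity 19 fell and 11 rose, among the latter Ptprc, the CD45 phosphatase (log2 0.29, from Div1 on), and Ms4a1 (0.22, from Div3 on; its call was lost without the Div5 library of host 197). The list's median was -0.13 relative to all genes and 1.07 per cell.

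Among the genes dated to Div3 and higher, Pik3r6, a regulatory subunit of PI3 kinase gamma, was at 4.62 and 4.79 CPM in Div0, 4.49 and 5.51 in Div1, 16.3 and 12.3 in Div3 and 74.9 and 61.7 in Div5 (14.6-fold, log2 3.86 ± 0.12, adjusted p = 3.39e-15). Div0 and Div1 overlapped, and Div3 and Div5 each stood above the group before. Gatm, an enzyme of creatine synthesis, rose 10.7-fold, Gstt1, a glutathione transferase, 9.93-fold, and Trabd2b, a membrane protease that acts on Wnt proteins, 9.30-fold. Of 25 genes of class switching and mutation 12 rose and 2 fell, among them Batf (1.78-fold), a factor required for switching, and Exo1 (1.77-fold), a mismatch repair exonuclease.

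Of 18 tested genes known from marginal zone and B1 cells, 10 rose (55.6%) and 4 fell (22.2%), with a median log2 of 0.84. Of the 10, 3 were dated to Div1, 5 to Div3 and 2 to Div5 only. Zbtb32, a transcriptional repressor of lymphocytes, was at 26.0 and 44.6 CPM in Div0, 30.2 and 49.0 in Div1, 81.2 and 133 in Div3 and 275 and 347 in Div5 (8.95-fold). Bhlhe41, a factor needed by B1 cells, was at 8.41 and 15.9 CPM, 9.15 and 13.1, 21.0 and 25.4, and 84.5 and 102 (7.77-fold). Div0 and Div1 overlapped for both genes, and Div3 and Div5 stood apart from them.

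Secreted factors that were chosen after their values were seen had a similar course at low level. Il10, the anti-inflammatory cytokine, had 9 and 11 counts in Div0, 8 and 14 in Div1, 36 and 47 in Div3 and 75 and 137 in Div5. Cxcl10, a ligand of Cxcr3, had 55 and 72 counts, 58 and 76, 90 and 142, and 209 and 265 (3.60-fold). Il6, an inflammatory cytokine, had 0 counts in both Div0 libraries, 0 and 3 in Div1, 3 and 2 in Div3 and 11 in each Div5 library, and is given without a fold. Il10 and Il6 are members through Div5 alone, so a rise was built in and they carry no test.

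Energy metabolism rose by small amounts in many genes at once. Of 57 subunits of oxidative phosphorylation 41 rose and 1 fell, with 1 of the higher ones dated to Div1, 11 to Div3 and 29 to Div5 only, and the median log2 was 0.33. Ndufb8, a subunit of complex I, was at 59.7 and 59.0 CPM in Div0, 63.2 and 67.7 in Div1, 70.8 and 78.7 in Div3 and 90.5 and 99.5 in Div5 (1.60-fold). Of 24 glycolysis genes 15 rose and 3 fell; Pgam1, a phosphoglycerate mutase, rose 1.64-fold and Tpi1, triosephosphate isomerase, 1.52-fold. Of 24 apoptosis genes 11 rose (45.8%) and 5 fell (20.8%, below the share of all members), among the former the BH3-only killer Bcl2l11 (2.27-fold, from Div3 on).

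Among genes dated to Div3 and lower, Sidt1, a lysosomal membrane protein, kept most of its level until the last step. It was at 39.3 and 39.2 CPM in Div0, 36.3 and 32.2 in Div1, 27.3 and 25.6 in Div3 and 9.76 and 6.41 in Div5 (4.82-fold lower, adjusted p = 2.72e-12). The other genes named in this class were Kcng1, a potassium channel subunit (4.80-fold lower), Igsf9, an adhesion molecule (3.81-fold), Rftn2, a raft-linked protein (3.78-fold), and Tmem108, a membrane protein (3.69-fold), and these 5 were lower per cell as well. Cr2, the complement receptor CD21 of mature B cells, was at 1735 and 1448 CPM, 1647 and 1339.9, 1359.5 and 1038, and 845 and 684 (2.08-fold lower); its log2 per cell was 0.15 (adjusted p = 0.510). Myc, the growth regulator, was at 209 and 244 CPM in Div0, 206 and 251 in Div1, 182 and 215 in Div3 and 163 and 166 in Div5 (log2 -0.45, and 0.75 per cell). Of 40 genes of ribosome biogenesis and other Myc targets, 10 rose (25.0%, below the share of all members), 1 fell and 29 were not called. The higher ones were dated to Div5 only, among them Odc1, the enzyme that starts polyamine synthesis (1.39-fold). Fewer were called without the Div0 or the Div5 library of host 196. By single steps, 5 of the 40 were lower at Div1. From Div3 to Div5, 28 were higher and 1 lower, where 17.9% of all members tested were higher.

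Prdm1, the master regulator of the plasma cell, was dated to Div5 only. Its level was 4.69 and 8.21 CPM in Div0, 4.32 and 5.91 in Div1, 4.69 and 8.95 in Div3 and 17.6 and 26.0 in Div5 (3.40-fold, log2 1.77 ± 0.21, adjusted p = 5.38e-07). Div0, Div1 and Div3 overlapped, and both Div5 libraries were above all 6 earlier ones. Xbp1, the driver of the secretory programme, first fell, from 112 and 125 CPM to 92.1 and 102 in Div1 and 94.0 and 111 in Div3, and then was at 146 and 167 CPM in Div5. Its log2 was -0.29 in the first division and 0.61 from Div3 to Div5, and the net 0.40 ± 0.07 passed (adjusted p = 4.56e-05). Irf4, a factor that B cells use on activation and again, at higher amounts, as plasma cells, was at 268 and 264 CPM, 213 and 224, 176 and 175, and 145 and 164 (log2 -0.78 ± 0.06, adjusted p = 8.96e-10; 0.41 per cell, adjusted p = 0.0617). Sdc1, which encodes the plasma cell surface protein CD138, was at 3.05 and 5.73 CPM in Div0, 2.54 and 2.42 in Div1, 1.15 and 2.39 in Div3 and 2.68 and 4.73 in Div5. Its difference between Div5 and Div0 was not called (log2 -0.23 ± 0.31, adjusted p = 0.564, and log2 0.93 per cell). At these low levels it was called lower in Div3 than in Div0 (log2 -1.25, adjusted p = 0.0121) and higher in Div5 than in Div3 (1.02, adjusted p = 0.0429). Igj, the joining chain of secreted antibody, was at 21.4 and 43.8 CPM, 21.8 and 25.2, 12.8 and 18.0, and 36.4 and 63.6; the hosts overlapped between Div0 and Div5, and the call (log2 0.63, adjusted p = 0.000933) was lost without the host block and without the Div5 library of host 197.

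Of the 28 tested genes of the plasma cell list, 11 were higher (39.3%) and 7 lower (25.0%, near the share of all members); 7 of the higher ones were dated to Div5 only. Other large changes dated to Div5 only were in Cln8, an ER receptor for lysosomal enzymes (4.76-fold), Ckb, a creatine kinase (3.57-fold), Gcat, an enzyme of threonine breakdown (3.02-fold), and Spn. Spn encodes CD43, the surface protein whose absence was used to select the donor cells. It was at 20.6 and 29.1 CPM in Div0, 17.5 and 24.6 in Div1, 21.3 and 32.7 in Div3 and 62.0 and 87.8 in Div5 (3.02-fold, adjusted p = 2.57e-08). Div0 to Div3 overlapped, and Div5 stood above them.

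Genes of the ER were mostly dated to Div5 only. Of 70 genes of ER secretion and the unfolded protein response 40 rose and 5 fell, 35 of the 40 dated to Div5 only, with medians of -0.03, 0.03 and 0.28 for the 3 steps and 0.24 in all. Derl3, a channel component of ER-associated degradation, was the early exception: 10.2 and 13.1 CPM in Div0, 13.3 and 18.6 in Div1, 22.7 and 27.5 in Div3 and 41.4 and 51.7 in Div5 (4.0-fold). Sdf2l1, a chaperone cofactor, had the more usual course, with 43.6 and 57.0 CPM, 39.7 and 49.6, 41.8 and 60.8, and then 81.6 and 94.4 (1.76-fold). Atf6, a sensor of unfolded protein in the ER, rose 1.60-fold from Div3 on. Sterol synthesis genes had 14 of 29 higher and 6 lower, 11 of the 14 dated to Div5 only, among them Sqle, squalene epoxidase (1.52-fold). The 6 lower ones included Abca1, which exports sterol (log2 -3.74), and none of the 6 is an enzyme of synthesis.

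The ER stress response element (ERSE, searched on both strands as CCAAT and CCACG with 9 bases between them, so that it includes a CCAAT box) is the site known for Atf6 and Xbp1. The windows below show it, in capitals, in 3 chaperone genes dated to Div5 only; other CCAAT boxes are in capitals too. They are the 110 bases before the RefSeq start in GRCm38.p6: Hspa5, the central ER chaperone BiP, at chr2:34771980-34772089 on the plus strand, Hsp90b1, the ER member of the Hsp90 family, at chr10:86705445-86705554 on the minus strand, and Pdia6, a disulfide isomerase, at chr12:17266479-17266588 on the plus strand.
Hspa5: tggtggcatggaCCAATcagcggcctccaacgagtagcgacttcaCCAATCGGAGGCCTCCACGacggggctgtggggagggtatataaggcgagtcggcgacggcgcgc
Hsp90b1: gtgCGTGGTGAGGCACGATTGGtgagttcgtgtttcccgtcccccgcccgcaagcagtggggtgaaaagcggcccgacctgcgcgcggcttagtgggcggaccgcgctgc
Pdia6: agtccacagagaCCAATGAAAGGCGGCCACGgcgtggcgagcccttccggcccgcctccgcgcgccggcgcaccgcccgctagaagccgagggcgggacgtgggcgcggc
In windows of 250 bases the element stood in 18 of 9079 members (0.198%) and in 33 of all 27025 windows (0.122%). By date, it stood in 9 of the 1203 genes dated to Div5 only and higher (0.748%), in 1 of 577 dated to Div1 and higher, in 1 of 1270 dated to Div5 only and lower, and in none of the other 3 classes; the remaining 7 were not called. The 9 were Hspa5 (log2 0.43), Hsp90b1 (0.67), Pdia6 (0.64), Creld2 (0.66), Calr (0.41), Canx (0.40), Dnajc3 (0.36), Syvn1 (0.22) and Hnrnpa3 (0.19), and the first 8 encode ER proteins. Derl3 was the gene dated to Div1 and Pan2 the lower one (-0.26). The 7 not called included Ero1lb (-0.00) and Alg12 (0.07), which also encode ER proteins, so not every ER gene with the element rose. The others were Acacb, Adcy3, and Xlr3a, Xlr3b and Xlr3c, near-identical copies whose reads could be shared.

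**Figure D3:**
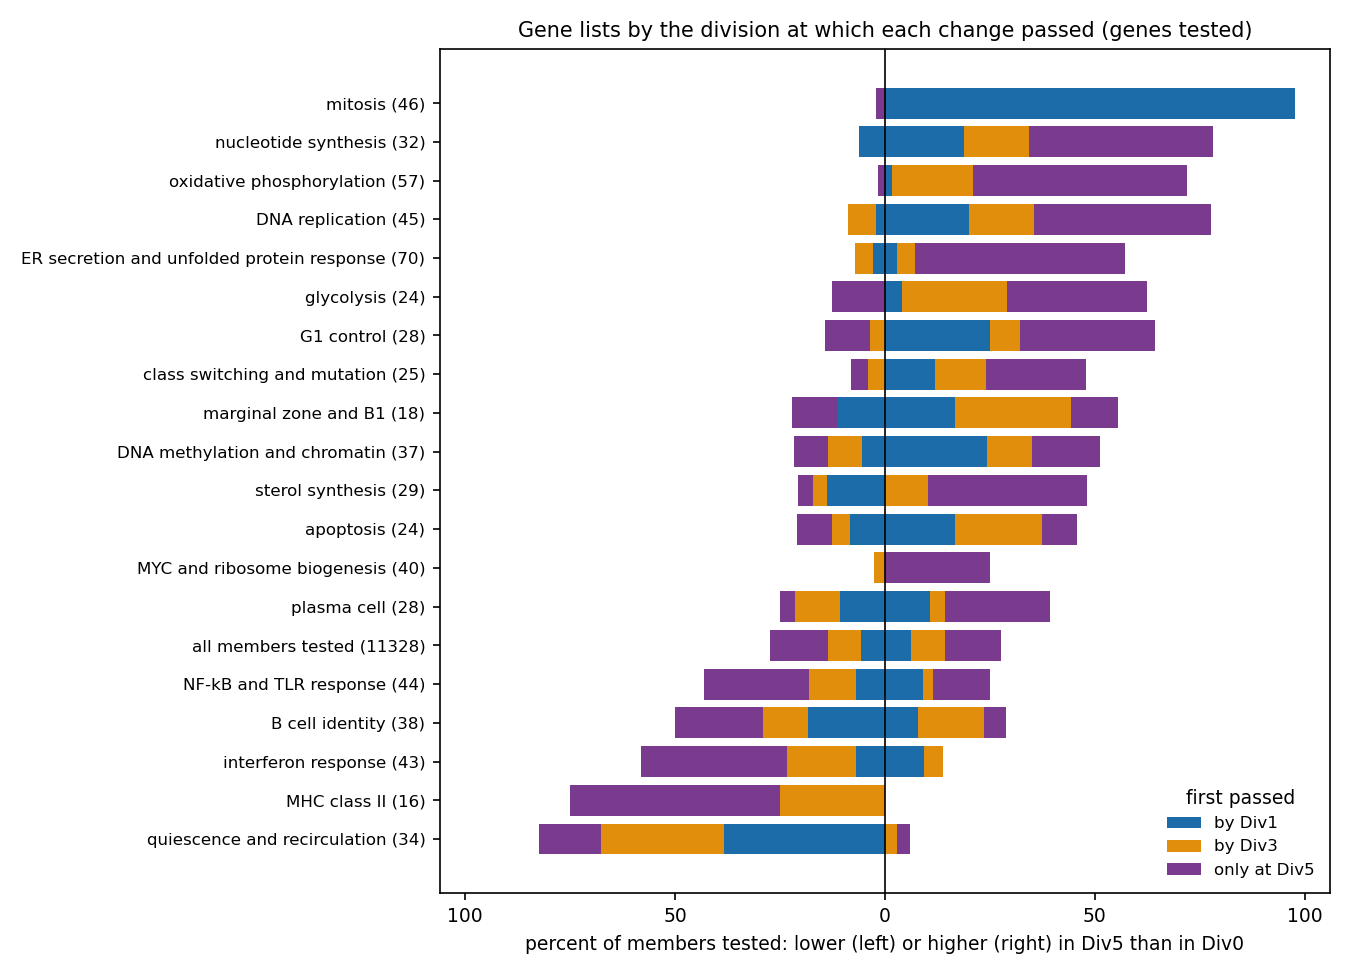
Percent of the tested genes of each list that were higher (right) or lower (left) in Div5 than in Div0, coloured by the first division at which the change passed, with the number tested in brackets and all members tested for scale. Mitosis is almost wholly of Div1 date, ER secretion and oxidative phosphorylation mostly of Div5 date, and quiescence genes lie to the left with all dates.

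MHC class II and interferon response genes were more often lower than higher, relative to all genes. Of 16 MHC class II genes 12 fell and none rose, 4 dated to Div3 and 8 to Div5 only (median log2 -0.24 relative to all genes, 0.96 per cell, where 15 were higher). H2-Oa, a chain of the H2-O modulator of peptide loading, was at 344 and 329.7 CPM in Div0, 377 and 339 in Div1, 334 and 296 in Div3 and 225 and 202 in Div5 (log2 -0.66, and 0.54 per cell). H2-Eb2, an E beta chain, was 1.77-fold lower, and its per-cell log2 was 0.38 (adjusted p = 0.0911). Of 43 interferon response genes 25 fell and 6 rose, 15 of the 25 dated to Div5 only (median -0.26, and 0.95 per cell); Irf7, the amplifier of interferon transcription, was at 18.6 and 19.8 CPM, 12.7 and 16.9, 12 and 18.3, and 8.04 and 9.70 (log2 -1.12; 0.07 per cell, adjusted p = 0.763). Of 44 genes of NF-kB and Toll-like receptor response 19 fell (43.2%) and 11 rose (25.0%, near the share of all members), 8 of the 19 before Div5 (median -0.04, and 1.17 per cell), with Rel, the c-Rel subunit, 1.65-fold lower and 0.49 in log2 per cell.

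Of the genes dated to Div5 only and lower, Fcgrt, the neonatal Fc receptor that recycles antibody, was at 27.5 and 27.8 CPM in Div0, 41.4 and 34.4 in Div1, 33.1 and 23.2 in Div3 and 11.0 and 7.45 in Div5 (2.98-fold lower). Fcer2a, the low-affinity IgE receptor CD23, was at 1058 and 1092 CPM, 1213 and 1186, 1026 and 982, and 612 and 527 (1.89-fold lower, 0.28 in log2 per cell with adjusted p = 0.205). Pacsin1, an endocytic membrane-bending protein, was 2.80-fold lower and Tnik, a kinase of Wnt signalling, 2.50-fold; per cell, Fcgrt, Pacsin1 and Tnik were not called, with log2 of -0.38, -0.27 and -0.11. Marco, a scavenger receptor, was at 13.7 and 9.49 CPM in Div0, 14.8 and 12.2 in Div1, 8.30 and 15.2 in Div3 and 4.99 and 2.97 in Div5, and Hmox1, heme oxygenase 1, at 22.1 and 9.75, 16.1 and 15.0, 12 and 12, and 9.24 and 5.37; the Hmox1 call was lost without the Div0 library of host 196. Both are also high in macrophages. Of 10 tested macrophage and monocyte markers, 4 fell, Hmox1 itself among them, and 1 rose. The list's summed level, Hmox1 included, was 75.6 and 51.7 CPM in Div0 and 63.6 and 49.0 CPM in Div5. The part of such cells in the 2 values was not tested.

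Some genes turned around between the first division and Div5. Of the genes dated to Div5 only, 20 of the higher ones had been called lower at Div1, and 67 of the lower ones had been called higher at Div1. These are 1.33% and 4.26% of their classes, less than the 6.40% and 7.84% of all genes tested that were lower and higher at Div1. Vpreb3, a chaperone-like protein of the B cell receptor, was at 54.0 and 48.4 CPM in Div0, 35.9 and 30.8 in Div1, 47.1 and 38.4 in Div3 and 99.1 and 94.6 in Div5. Ahnak, a large scaffold protein of calcium signalling, was at 26.6 and 26.5 CPM, 17.3 and 19.0, 26.5 and 29.2, and 61.9 and 81.5. Bcat1, which starts the breakdown of branched-chain amino acids, fell by 0.65 on the log2 scale at Div1 and ended 1.94-fold above Div0. In the other direction, Egr3, an immediate early factor of antigen receptor signalling, was at 143 and 127 CPM, 165 and 150.5, 142 and 118, and then 69.3 and 60.3, and Fcgrt and Pacsin1 also rose at Div1 before they fell (log2 0.46 and 0.30 at Div1). These 6 were taken as the 3 with the largest change in each direction, after the turning class was seen.

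Whether the first division foretold the later change can be asked by following genes called between Div0 and Div1 into the step from Div3 to Div5. The compared groups share no libraries, but both comparisons came from the same fit and share each gene's estimated spread. A gene with little spread passes more easily in both steps and in either direction, and the part of this in the counts was not tested. At Div1, 925 members were higher (7.84% of all genes tested were) and 768 lower (6.40%). Of the 925, 304 rose again from Div3 to Div5 (32.9%) and 251 fell (27.1%), against 17.9% and 16.7% of all members tested. Both directions were thus above the level of all members, and the median of the later step was 0.01. Of the 768, 215 fell again (28.0%) and 108 rose (14.1%), with a median of -0.07. Without the host block, 646 genes were higher at Div1, of which 36.7% later rose and 18.0% later fell, against 15.0% and 13.0% of members. Of the 469 lower ones in that setting, 24.5% fell again and 9.17% rose. With only the 8 libraries of Div0 to Div5, 32.1% of 1320 higher genes later rose and 30.7% fell, against 21.6% and 20.4% of members. Of the 1236 lower ones there, 27.9% fell again and 21.0% rose.

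**Figure D4:**
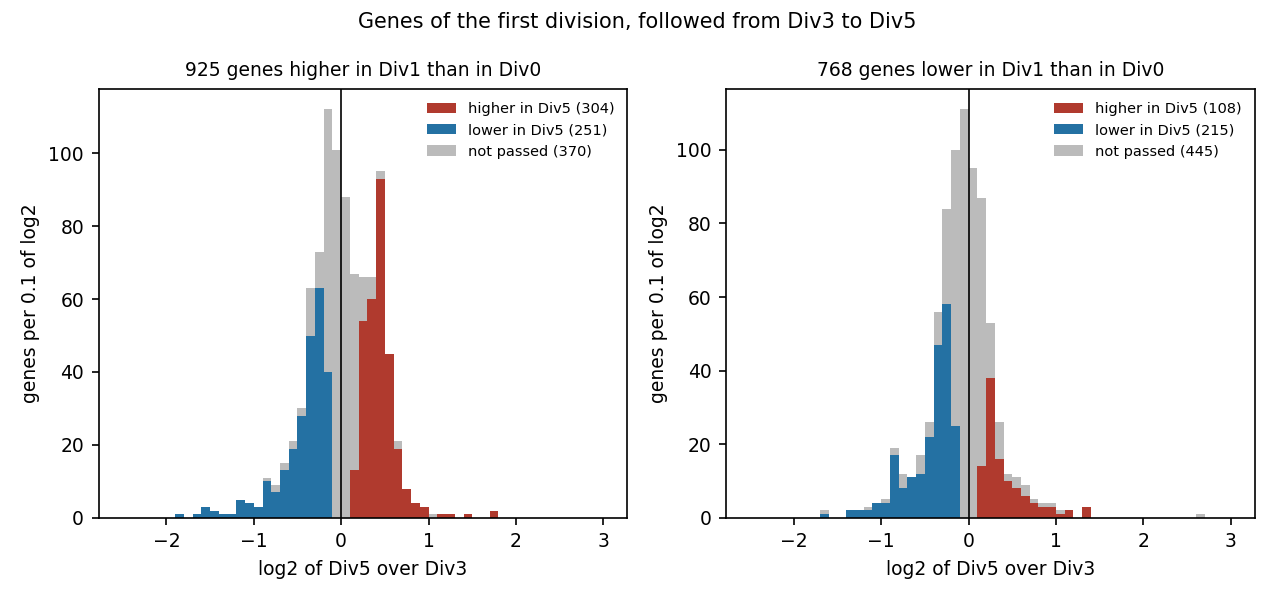
Histogram of the log2 of Div5 over Div3 (bins of 0.1) for the 925 genes higher (left) and the 768 genes lower (right) in Div1 than in Div0; red and blue are genes called higher or lower in Div5 than in Div3, grey are genes not called. The left panel spreads to both sides, with 304 genes higher and 251 lower, and the right panel has more genes lower (215) than higher (108).

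All of the above is relative to the other genes of a library, and the amount of mRNA per cell was not constant. ERCC spike-in RNA had been added to each sample of 40000 sorted cells, so that counts over spike-in counts give a scale per cell. The deposited mRNAs per cell, summed over genes with a symbol, came to 27359 and 33513 in Div0, 42749 and 59837 in Div1, 43509.7 and 53430.1 in Div3 and 74919 and 67875 in Div5. Div1 and Div3 overlapped, and Div5 was above all 6 other libraries, at 2.74 times Div0 in host 196 and 2.03 times in host 197 (2.38 ± 0.504, SD, n = 2; an exact test of 2 against 2 cannot go below p = 0.333). On that scale the median log2 over genes was 1.20, made up of 0.73 in the first division, -0.08 from Div1 to Div3 and 0.54 from Div3 to Div5.

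Per cell, 10287 members (90.8%) were higher in Div5 and 100 (0.883%) were lower, against 87.9% and 0.848% of all genes tested. All 3137 genes higher relative to other genes were also higher per cell, and all 100 lower per cell were also lower relative to other genes. Both scalings use the same counts, and spike-in scaling moves genes up by a near equal amount (median 1.20). The overlap was therefore largely built in. By the relative dates, the genes lower per cell were 70 of the 636 genes dated to Div1 and lower, 25 of the 898 dated to Div3 and 5 of the 1571 dated to Div5 only, while 373, 621 and 1319 of those classes were higher per cell. By dates taken per cell, 13 of the 100 were dated to Div1, 49 to Div3 and 38 to Div5 only. Among genes of at least 10 CPM, Mapk12 (log2 -3.22 per cell), Pde2a (-2.64), Abca1 (-2.53), Zfp629 (-2.20) and Cacna1i (-2.07) fell furthest. Without the Div5 library of host 197 the count of lower genes was 56. Most per-cell rises were dated to Div1 (9413, with 194 to Div3 and 680 to Div5 only), but that date hung on single libraries: it came to 1875 with the host 196 library of Div0 left out and to 2362 with the host 197 library of Div1 left out, against 7945 to 9770 without any of the other 6.

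**Figure D5:**
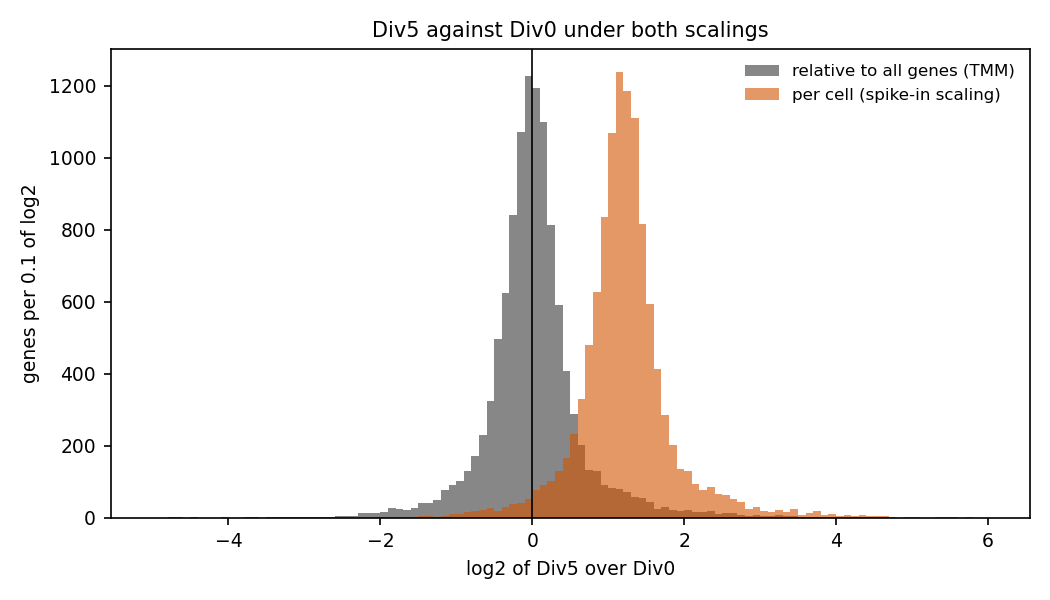
Histogram of the log2 of Div5 over Div0 for the tested members (bins of 0.1), relative to all genes (grey, TMM) and per cell (orange, spike-in scaling). The relative values centre on 0.00 and the per-cell values on 1.20, so that most genes left of 0 in grey lie right of 0 in orange.

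Markers of other spleen cells were summed for whole lists. Red cell markers summed to 98.6 and 24.9 CPM in Div0 and 47.0 and 11.9 in Div5, with 2 of 3 tested lower, and platelet markers to 15.1 and 8.90 and then 6.48 and 5.85, with 3 of 3 lower. Neutrophil markers were higher in host 197 in every group (43.8, 82.8, 26.7 and 25.9 CPM from Div0 to Div5, against 9.09, 6.95, 8.07 and 4.62 in host 196), with 1 of 3 tested lower and Elane and Mpo at 3 counts or fewer in all 8 libraries. The summed dendritic cell list went from 116 and 134 CPM to 460.2 and 436, with 3 of 4 tested higher, all dated to Div1, and 1 lower. It holds Itgax, the leading gene above, which went from 3.65 and 4.79 CPM to 47.1 and 64.0, a minor part of that rise. Its members Clec9a and Cd209a stayed at 3 counts or fewer. T cell markers summed to 186 and 188 CPM in Div0 and 209 and 231 in Div5, with 1 of 5 tested higher and 3 lower, NK cell markers to 9.68 and 10.7 and then 15.9 and 13.5, with 1 of 1 higher, and stromal and endothelial markers to 277 and 281 and then 259 and 253, with 2 of 3 lower. Ncr1, Klre1, Gzma, Gzmb and Pdgfra of these lists stayed at 3 counts or fewer. The part of such cells in the changes above was not tested.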

How the data were processed

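Gene counts over exons were deposited by the authors as whole numbers for 12 libraries, 1 table for all, and spike-in counts in another; per the file headers' readme the genes are UCSC KnownGenes of mm9, and the submitters' processing notes name R 3.2.2 and Picard. The aligner is not given in the sources used here, nor are the counter and its use of strand, so overlapping and antisense genes cannot be told apart. The deposited mRNAs per cell (a signal scaled by the authors to spike-ins) were only summed. Rows without a symbol (90 of 21761, 0.05 to 0.094% of counts) were left out.

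Counts were tested with edgeR 4.0.16 (R 4.3.3): TMM, filterByExpr over 6 groups, and the quasi-likelihood test on group plus host over all 12 libraries (5 residual degrees of freedom), adjusted by Benjamini and Hochberg over 12026 genes. Host numbers mark the same animal, and same-host libraries deviated together (r 0.216 to 0.358 over 6 pairs of Div0 to Div5, 0.007 to 0.358 over 15 pairs of all groups). With the host as a block, p-values measure the scatter left after group and host means, from these 2 hosts only. Per-cell tests set library sizes to spike-in counts. Tables and plots used Python 3.11.15, pandas 2.3.3 and matplotlib 3.10.9, and the procedure was tested on simulated data. Spike-in counts were 257974 to 683173 in the 8 libraries (1.89 to 4.92% of gene plus spike-in counts). No copies were removed by molecular tags.

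Named genes were the 5 with the largest change in each of 6 classes (10 CPM or more in the higher group, same sign in both hosts), the 3 largest in the main direction of each of 19 lists, the 5 largest falls per cell and 20 anchors. Of these, 5 genes are not reported here. The members, lists and rule were chosen with earlier results of these data known. Alternatives were no block, DESeq2 1.42.0, DESeq2 size factors, spike-in scaling, other filters, 8 libraries only, limma 3.58.1 on mRNAs per cell and leaving out each library; per-cell dates and followed genes under other settings were added after seeing the data. Promoter windows are RefSeq's (GRCm38.p6), not in the build of the counts, and were matched by Entrez gene number for 9079 of 11328 members.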

Additional observations from a re-analysis of the deposited data

How the results depend on the processing

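Under spike-in scaling the genes called came to 10387 (10287 higher, 100 lower), and the dates to 9413, 194 and 680 upward and 13, 49 and 38 downward for Div1, Div3 and Div5 only. With a minimum log2 of 1 there were 1112 genes (637 higher, 475 lower). Genes dated to Div1 and lower numbered 398 without the replicate block, 258 under DESeq2 and 318 at an adjusted p under 0.01. Without the block, 542 were dated to Div1 and higher, and the other counts stayed within 1.5 times. Leaving out 1 library gave 4740 to 6217 genes in all, 2392 to 3118 higher and 2328 to 3108 lower. The dates then ranged from 409 to 704, 485 to 1177 and 1066 to 1941 upward and from 269 to 593, 453 to 1231 and 1065 to 2007 downward. Per cell, 9331 to 10403 were higher and 56 to 121 lower.

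The named genes with a negative log2 relative to others and a positive one under spike-in scaling had these values there: Cd79a 1.01, Cd79b 0.82, Cdkn1b 0.74, Cr2 0.15, Ebi3 0.49, Egr3 0.15, Fcer2a 0.28, H2-DMa 0.82, H2-Eb2 0.38, H2-Oa 0.54, Hmox1 0.12, Ifit3 0.15, Irak2 0.41, Irf4 0.41, Irf7 0.07, Irgm2 0.22, Klf2 1.01, Myc 0.75, Pax5 1.06, Pttg1 0.65, Rel 0.49 and Sdc1 0.93. The list goes by sign alone. Cr2, Egr3, Fcer2a, H2-Eb2, Hmox1, Ifit3, Irak2, Irf4, Irf7 and Irgm2 were not called per cell, and Sdc1 was not called relative to others. Medians of pathway lists that changed sign there were B cell identity 1.07, MHC class II 0.96, NF-kB and TLR response 1.17, interferon response 0.95 and quiescence 0.62. With 1 library left out, Sdc1 ranged from -0.66 to 0.24 (0.24 without Div0 of host 197, 0.11 without Div5 of host 196). Of the named genes called, Igj and Klf2 lost the call without the block, Pax5 and Klf2 under DESeq2, and at most 3 when a library was left out. The cause of these changes was not tested.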
